A study of Mus musculus with 18 samples.

Results

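Mitogen-activated protein (MAP) kinases are switched off by proteins that the same signals induce. The genes described here are 10 such feedback inhibitors, namely Dusp1, Dusp4, Dusp5, Dusp6, Dusp8, Dusp10, Spry1, Spry2, Spry4 and Spred1. They were chosen by name, and each matched 1 of the 32675 genes in the expression table. Kidneys came from wild-type male C57BL/6 mice that were 6 weeks old at the start, in 3 groups of 6. Ctrl mice were handled daily and not defeated. The mice labelled StressPbs (PBS) and StressFlx (FLX) underwent chronic social defeat stress (CSDS), an encounter with an aggressive CD-1 mouse of 10 min a day for 14 days. During these days FLX mice received fluoxetine, a serotonin reuptake inhibitor, at 10 mg/kg a day by intraperitoneal injection, and PBS mice received phosphate-buffered saline. Injection is described for the defeated mice only, so that defeat and injection cannot be told apart in PBS versus Ctrl, and no undefeated mice given fluoxetine were among the samples.

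MAP kinases are the last step of relays that run from receptors at the cell surface to transcription factors, with an ERK branch that answers mainly to growth factors and JNK and p38 branches that answer mainly to stress. Dual-specificity phosphatases (Dusp genes) remove the activating phosphates from the MAP kinases themselves. Sprouty (Spry) and Spred proteins act higher up, between receptor tyrosine kinases and Raf, and Spry1 is known in the developing kidney as a brake on signalling through the receptor Ret. Many of these genes are transcribed within minutes of a stimulus, and Dusp1 is also induced by glucocorticoids and by cyclic AMP.

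Promoters of 8 of the 10 genes were matched in RefSeq (GRCm38.p6). Searched on both strands over 300 bases, from 250 before to 50 after the annotated start, the cyclic AMP response element (CRE) TGACGTCA was found in 1.79% of 32851 promoters, its half-site TGACG, which every CRE also contains, in 20.8%, and the CArG box, to which serum response factor binds, in 1.63%. The 250 bases before the start are shown for 4 genes, Dusp1, Dusp5 and Dusp8 because they hold these motifs and Spry1 because it was the member with the smallest adjusted p. Capitals mark CREs, half-sites and CArG boxes.
Dusp1: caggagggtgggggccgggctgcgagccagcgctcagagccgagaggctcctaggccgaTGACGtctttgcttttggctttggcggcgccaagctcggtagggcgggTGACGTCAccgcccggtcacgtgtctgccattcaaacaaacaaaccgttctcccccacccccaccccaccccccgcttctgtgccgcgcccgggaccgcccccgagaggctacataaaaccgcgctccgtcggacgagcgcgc
Dusp5: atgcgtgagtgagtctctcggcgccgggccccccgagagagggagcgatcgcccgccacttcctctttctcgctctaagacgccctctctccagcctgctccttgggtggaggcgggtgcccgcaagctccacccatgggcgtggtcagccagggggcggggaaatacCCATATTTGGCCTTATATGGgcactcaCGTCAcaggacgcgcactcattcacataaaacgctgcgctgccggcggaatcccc
Dusp8: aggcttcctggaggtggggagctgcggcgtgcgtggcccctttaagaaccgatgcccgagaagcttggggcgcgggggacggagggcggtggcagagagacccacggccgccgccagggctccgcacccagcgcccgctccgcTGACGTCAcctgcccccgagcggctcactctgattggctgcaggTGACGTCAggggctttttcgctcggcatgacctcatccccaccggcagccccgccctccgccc
Spry1: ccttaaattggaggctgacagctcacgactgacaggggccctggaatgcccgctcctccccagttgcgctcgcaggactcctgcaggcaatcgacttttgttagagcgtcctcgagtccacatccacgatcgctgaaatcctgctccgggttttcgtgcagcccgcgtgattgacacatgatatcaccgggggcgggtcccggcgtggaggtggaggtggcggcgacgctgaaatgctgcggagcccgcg
The Dusp1 window (chr17:26508473-26508722, minus strand) held 1 CRE that began 143 bases before the start and a separate half-site that began 191 bases before it. The Dusp8 window (chr7:142095285-142095534, minus strand) held 2 CREs, which began 107 and 63 bases before the start. The Dusp5 window (chr19:53528895-53529144, plus strand) held 2 adjoining CArG boxes, which began 82 and 72 bases before the start, and a half-site that began 55 bases before it. The Spry1 window (chr3:37639697-37639946, plus strand) and the windows of Dusp6, Dusp10, Spry2 and Spred1 held none of these 3 motifs. The AP-1 site TGANTCA, present in 7.81% of promoters, was in none of the 8. Another motif searched, the GC box GGGCGG, was in 35.7% of promoters and is not marked. A match is a stretch of letters and not a measured binding site. The deposited rows of Dusp1, Dusp5, Dusp8 and Dusp10 also cover transcripts that begin further upstream. For Dusp5 the row begins at chr19:53529109, inside the window shown.

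All 18 kidneys expressed all 10 genes. On the FPKM scale, which corrects for transcript length, mean levels in Ctrl kidneys ran from 32.2 ± 8.20 (SD, n = 6) for Dusp1 through 12.0 ± 1.10 for Dusp6, 7.10 ± 1.38 for Spry1, 4.34 ± 0.359 for Spry2, 3.94 ± 0.635 for Spred1, 2.78 ± 0.626 for Dusp4, 1.65 ± 0.442 for Spry4, 0.654 ± 0.258 for Dusp5 and 0.323 ± 0.146 for Dusp8 to 0.209 ± 0.0886 for Dusp10. Dusp1, Dusp6 and Spry1 did not overlap with their neighbours in this order, and neither did Spry4 with Dusp5. The mice overlapped between Spry2 and Spred1, Spred1 and Dusp4, Dusp4 and Spry4, Dusp5 and Dusp8, and Dusp8 and Dusp10. At the low end, Dusp8 rested on 72 to 493 estimated counts per mouse and Dusp10 on 32 to 495, and the total counts were 72149987 to 79061296 per mouse except in FLX replicates 3 to 6, with fewer (from 48928823). Markers of proximal tubule, the main cell type of renal cortex, summed to 665 to 1289 FPKM over the 18 mice, and the 3 adrenal markers to at most 1.02 FPKM. In bulk kidney RNA, fewer cells of a type and less RNA per cell cannot be told apart.

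The study removed 1 PBS mouse for excessive inflammatory gene expression without naming it. PBS replicate 6 was taken to be that mouse, since its summed neutrophil markers (59.0 FPKM against 6.23 to 25.1 in the other PBS mice) and injured-tubule markers (63.5 against 1.66 to 6.19) were the highest of all 18 mice. Values are given first for the 5 remaining PBS mice, and those over all 6 follow for the members and for some of the other genes. The plot of levels by mouse shows both. Log2 fold changes, standard errors (SE) and p values come from edgeR's quasi-likelihood test, adjusted by the Benjamini-Hochberg method over all 20251 genes tested. All 10 members passed the filter on low counts.

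**Figure D1:**
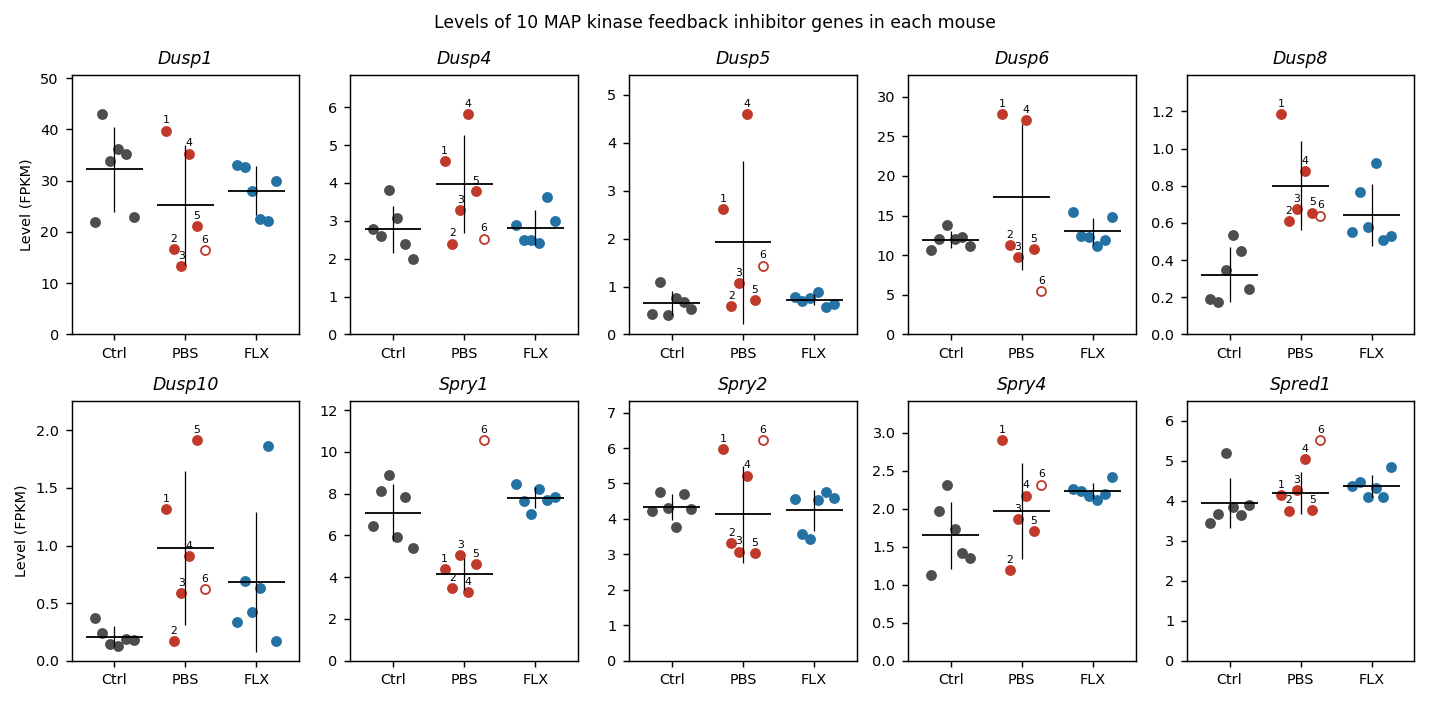
Level in FPKM (y axis, linear, from 0) of each of the 10 genes in each mouse, by group (x axis: Ctrl in grey, PBS in red, FLX in blue). Numbers are PBS replicates, the open circle is PBS replicate 6, and lines are the mean and SD without that mouse. The 5 filled PBS points of Spry1 lie below all Ctrl and FLX points and those of Dusp8 above all Ctrl points, while PBS replicates 1 and 4 alone are high for Dusp5 and Dusp6.

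Stress with saline was first compared with no stress. At an adjusted p under 0.05, Dusp8 and Dusp10 were higher in PBS than in Ctrl kidneys, Spry1 was lower and 7 members did not pass, against 3.81% of all genes passing. At the threshold of the study, an absolute log2 fold change over 1 with an unadjusted p under 0.05, Dusp5, Dusp8 and Dusp10 were up-regulated and no member was down-regulated, against 3.28% of all genes passing. The groups did not overlap for Dusp8 and Spry1, against 3.52% of all genes. Over the 10 members the median log2 fold change was 0.40, with 7 above 0 and 3 below, whereas the median of all genes tested was -0.0078. Neutrophil markers moved with the group, since the sum of 5 of them was 6.23 FPKM or more in all 6 PBS mice, 1.05 to 3.06 in Ctrl and 0.0833 to 4.35 in FLX mice. Their part in the differences of the members was not tested.

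Among the phosphatases that act mainly on JNK and p38, Dusp8 (chr7:142079490-142095843) had 0.173 to 0.534 FPKM in Ctrl mice with a median of 0.295. PBS replicates 1 to 5 had 1.19, 0.611, 0.676, 0.877 and 0.656 FPKM. All 5 lay above every Ctrl mouse, and so did PBS replicate 6 at 0.640 FPKM. The difference was 2.50-fold, a log2 fold change of 1.32 (SE 0.28, 95% interval 0.73 to 1.92, edgeR adjusted p = 0.0135). Without PBS replicate 1 the log2 fold change was 1.13 and the adjusted p was 0.0514, just over the threshold. The call held in 26 of 27 alternative settings. With all 6 PBS mice it was 1.27 (adjusted p = 0.0144).

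Dusp10 (chr1:184013302-184075636), which also acts on JNK and p38, had 0.129 to 0.373 FPKM in Ctrl mice with a median of 0.183. PBS replicates 1 to 5 had 1.32, 0.173, 0.587, 0.908 and 1.91 FPKM, an 11.1-fold spread from lowest to highest. PBS replicates 1, 3, 4 and 5 lay above every Ctrl mouse, and PBS replicate 2 lay within the Ctrl range. The difference was 4.62-fold, a log2 fold change of 2.21 (SE 0.55, 95% interval 1.05 to 3.37, edgeR adjusted p = 0.0308). With all 6 PBS mice it was 2.11 (adjusted p = 0.0302). The call was lost when any of Ctrl replicates 2, 4, 5 and 6 or PBS replicates 1, 4 and 5 was left out (adjusted p = 0.0600 to 0.0820), in limma fits of FPKM (adjusted p = 0.0767 to 0.106) and with the replicate number as a block (1.83, adjusted p = 0.0935), and the log2 fold change was 1.85 without PBS replicate 5.

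The highest levels of Dusp10 came from the kidneys with the most fat RNA. PBS replicate 5 and FLX replicate 5, at 1.91 and 1.86 FPKM, also had the highest sums of the white fat markers Adipoq and Plin1, 111 and 132 FPKM against 0.349 to 30.1 in the other 16 mice. Their sums of 4 brown fat markers were 547 and 283 FPKM, also the highest of the 18. Summed white fat markers ranged from 0.349 to 23.8 FPKM in Ctrl, 1.22 to 111 in PBS and 3.07 to 132 in FLX mice, and none of the markers was at 0 in all mice. The next highest white fat sums were those of FLX replicate 2 (30.1 FPKM), Ctrl replicate 6 (23.8) and PBS replicate 1 (20.8). Dusp10 in these mice stood at 0.688, 0.176 and 1.32 FPKM. The part of fat RNA in the Dusp10 difference was not tested.

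**Figure D2:**
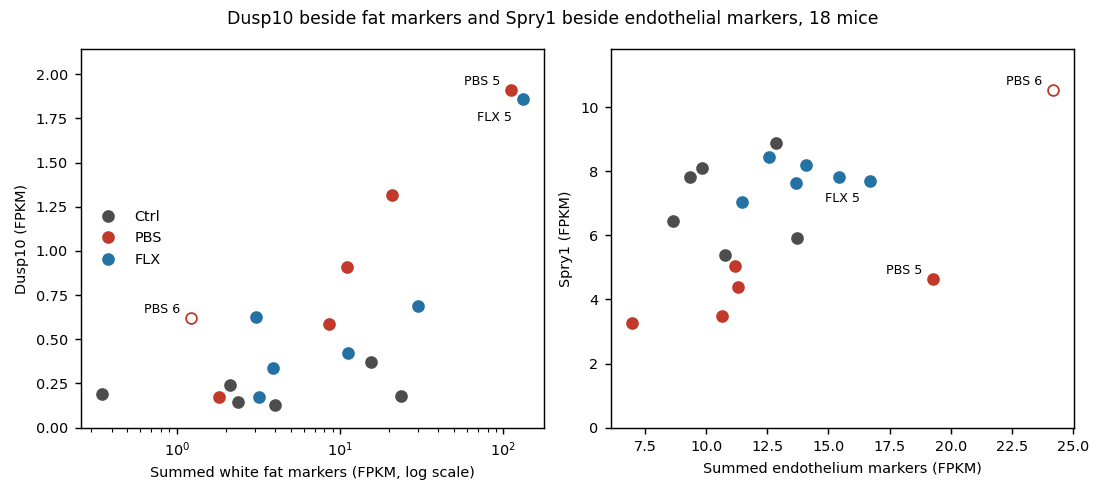
Dusp10 level against the sum of the white fat markers Adipoq and Plin1 (left, log x axis) and Spry1 level against the sum of the endothelial markers Pecam1 and Cdh5 (right), all in FPKM, 1 point per mouse (Ctrl grey, PBS red, FLX blue, PBS replicate 6 open). PBS replicate 5 and FLX replicate 5 are highest on both axes at left, and PBS replicate 6 is highest on both axes at right.

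Among the phosphatases that act mainly on ERK, Dusp5, a nuclear enzyme (chr19:53529109-53542431), had 0.409 to 1.10 FPKM in Ctrl mice with a median of 0.609. PBS replicates 1 to 5 had 2.61, 0.595, 1.08, 4.59 and 0.712 FPKM. Only replicates 1 and 4 lay above every Ctrl mouse, and the other 3 lay within the Ctrl range. The log2 fold change was 1.58 (SE 0.44, 95% interval 0.66 to 2.50) with an edgeR adjusted p of 0.0507, and without PBS replicate 4 it was 0.92 (adjusted p = 0.230). With PBS replicate 6, at 1.44 FPKM, it was 1.51 and passed (adjusted p = 0.0481). It also passed when Ctrl replicate 2 or PBS replicate 2, 3 or 5 was left out (adjusted p = 0.0206 to 0.0497) and with DESeq2 (adjusted p = 0.00543).

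Dusp6, the cytoplasmic ERK phosphatase, had 10.6 to 13.8 FPKM in Ctrl mice with a median of 12.0, the narrowest spread among the Dusp members there. PBS replicates 1 to 5 had 27.8, 11.2, 9.80, 27.0 and 10.7 FPKM, and replicate 6 had 5.43, the lowest of all 18 mice. Replicates 1 and 4 were thus above every other mouse, and the difference of the groups was a log2 fold change of 0.56 (95% interval 0.044 to 1.08, adjusted p = 0.235), or 0.38 with all 6 PBS mice (adjusted p = 0.512). Dusp4, a nuclear phosphatase of several MAP kinases, had 2.00 to 3.82 FPKM in Ctrl mice and 4.59, 2.40, 3.29, 5.82 and 3.79 in PBS replicates 1 to 5. Its log2 fold change was 0.54 (95% interval 0.12 to 0.96, adjusted p = 0.150), or 0.44 with all 6 (adjusted p = 0.238). Dusp1, a nuclear phosphatase of p38, JNK and ERK, had 21.9 to 43.0 FPKM in Ctrl mice and 39.8, 16.6, 13.4, 35.3 and 21.1 in PBS replicates 1 to 5. PBS replicates 2, 3 and 5 lay below every Ctrl mouse and replicates 1 and 4 within the Ctrl range, with a log2 fold change of -0.33 (95% interval -0.88 to 0.22, adjusted p = 0.556), or -0.43 with all 6 (adjusted p = 0.377).

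Among the inhibitors that act upstream of Raf, Spry1 (chr3:37639947-37644598) had 5.38 to 8.89 FPKM in Ctrl mice with a median of 7.14. PBS replicates 1 to 5 had 4.37, 3.49, 5.05, 3.28 and 4.63 FPKM. Each of the 5 lay below every Ctrl mouse. The level in PBS mice was 0.587 of that in Ctrl mice, a log2 fold change of -0.77 (SE 0.13, 95% interval -1.03 to -0.50, edgeR adjusted p = 0.00201), and leaving out any 1 mouse gave -0.84 to -0.71 (adjusted p = 0.000823 to 0.00837).

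PBS replicate 6 had 10.5 FPKM of Spry1, the highest of all 18 mice, and its inclusion gave a log2 fold change of -0.46 that did not pass (adjusted p = 0.226). This mouse also had the highest sums of the endothelial markers Pecam1 and Cdh5, 24.2 FPKM against 6.97 to 19.3 in the other 17 mice, and of the fibroblast and mural cell markers Pdgfrb and Col1a1, 26.1 against 6.71 to 13.97. It had the lowest sum of the proximal tubule markers, 665 FPKM against 1020 or more. Across groups, without that mouse, endothelial sums were 8.66 to 13.7 FPKM in Ctrl, 6.97 to 19.3 in PBS and 11.5 to 16.7 in FLX mice, which overlap. The part of cell composition in the Spry1 difference was not tested.

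Spry2 shared with the ERK phosphatases the high values of PBS replicates 1 and 4. It had 3.77 to 4.75 FPKM in Ctrl mice, and PBS mice lay on both sides of that range, with replicates 1, 4 and 6 above it at 5.98, 5.22 and 6.21 FPKM and replicates 2, 3 and 5 below it at 3.33, 3.08 and 3.04. Its log2 fold change was -0.055 (95% interval -0.43 to 0.31, adjusted p = 0.912), or 0.045 with replicate 6. Spry4 had a log2 fold change of 0.27 (95% interval -0.14 to 0.68, adjusted p = 0.509), or 0.30 with all 6 (adjusted p = 0.384). Spred1, whose product brings the Ras inhibitor neurofibromin to the membrane, had 0.10 (95% interval -0.11 to 0.32, adjusted p = 0.656), or 0.16 with all 6 (adjusted p = 0.404). With all 6 PBS mice 4.28% of the 19946 genes then tested passed, 3 members among them (Dusp5, Dusp8 and Dusp10), and only Dusp8 did not overlap, against 2.75% of all genes.

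**Figure D3:**
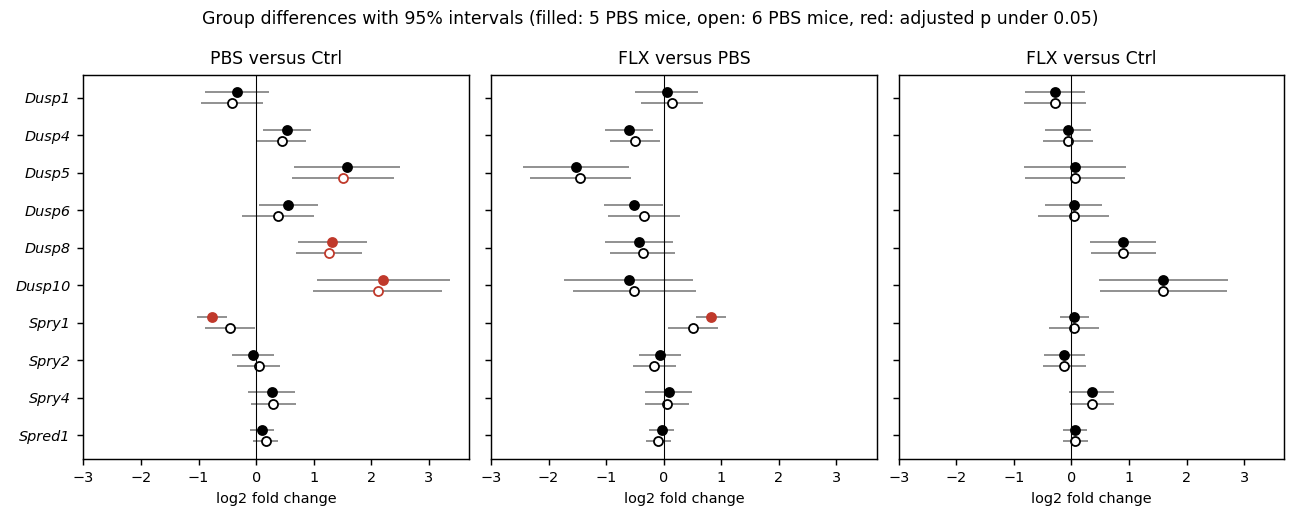
Log2 fold change (x axis) of each gene in the 3 comparisons, with its 95% interval from edgeR's quasi-likelihood test. Filled points use 5 PBS mice and open points 6, and red marks an adjusted p under 0.05. With 5 PBS mice the red points are Dusp8, Dusp10 and Spry1 in PBS versus Ctrl and Spry1 in FLX versus PBS, and with 6 they are Dusp5, Dusp8 and Dusp10 in PBS versus Ctrl.

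Within the PBS group the levels of the members differed between mice. PBS replicate 1 exceeded every Ctrl mouse for 7 of the 10 members and replicate 4 for 6, against 1, 2 and 2 for replicates 2, 3 and 5. PBS replicate 6 did so for 7, and each FLX mouse for 2. The share of all genes above every Ctrl mouse was not computed for each mouse. These counts are therefore a description, and nothing particular to the members is read from them. For 3 members, Dusp4, Dusp5 and Dusp6, replicates 1 and 4 were the highest of all 18 mice, an arrangement seen for 0.899% of all genes tested. Both mice were picked after the members' values had been seen, so this is a description. In a list of 21 tested ERK-responsive genes the same arrangement held for Egr1, Egr2, Egr3, Ier2, Junb and Myc, which are immediate early genes, and among 15 tested growth factor genes for Hbegf, a ligand of the EGF receptor.

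The immediate early factor Egr1 stood at 54.7 and 36.1 FPKM in PBS replicates 1 and 4, and at 3.37 to 7.55 in the other PBS mice, 6.46 to 20.3 in Ctrl and 4.37 to 9.66 in FLX mice. Hbegf stood at 30.4 and 36.2 FPKM in these mice and at 1.85 to 5.47 in the other 16. Errfi1, a feedback inhibitor of the EGF receptor in the list of glucocorticoid-induced genes, stood at 254 and 235 FPKM against 79.9 to 156. Not all genes of these kinds were high there. The immediate early gene Fos, at 6.87 and 4.32 FPKM, lay inside the Ctrl range of 2.70 to 8.87. The ERK phosphatase gene Dusp9, at 2.74 and 2.69 FPKM, lay below every Ctrl mouse (3.39 FPKM or more). This was not particular to PBS replicates 1 and 4, since all other PBS mice and all FLX mice also lay below every Ctrl mouse for Dusp9. The sums of proximal tubule markers in PBS replicates 1 and 4, 1243 and 1251 FPKM, lay within the range of the Ctrl mice. Their total counts of 72373418 and 78711121 were close to the Ctrl range. Other marker sums were extreme. PBS replicate 1 had the highest sum of distal convoluted tubule markers of all mice. PBS replicate 4 had the lowest endothelial sum, 6.97 FPKM, and its neutrophil sum of 25.1 FPKM was exceeded only in PBS replicate 6. The part of cell composition in the high values of these mice was not tested.

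**Figure D4:**
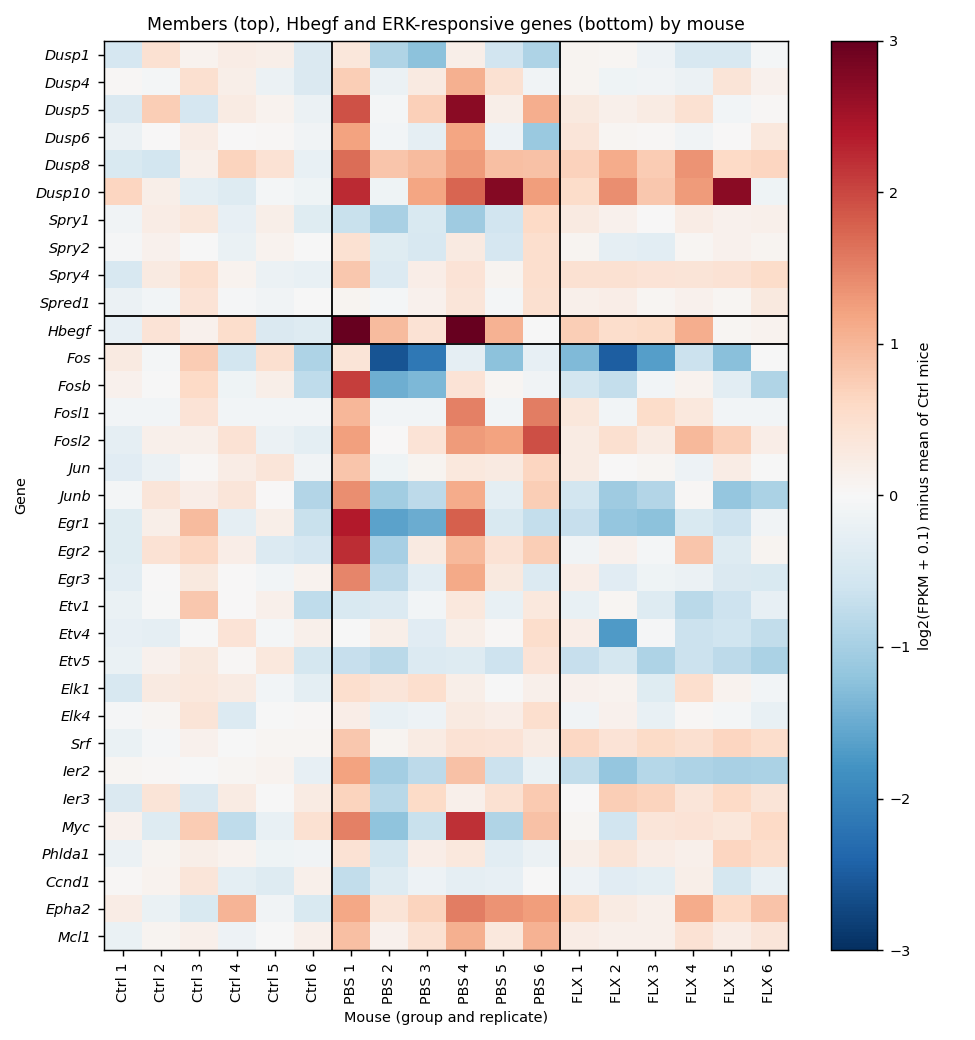
Log2(FPKM + 0.1) minus the mean of the 6 Ctrl mice (colour, red higher and blue lower, limited at 3 either way) for the 10 members (top), Hbegf and the 22 ERK-responsive genes (bottom) in each of 18 mice (columns). PBS replicates 1 and 4 are red together for Dusp4, Dusp5, Dusp6, Hbegf, Junb, Egr1 to Egr3, Ier2 and Myc, and Dusp8 is red in all PBS and FLX mice.

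The 3 genes whose pattern over the 17 mice was most like that of Dusp6 among 12091 genes compared were Bhlhe40, a transcriptional repressor of the clock (Pearson's r = 0.963), Slc20a1, a phosphate transporter (0.894), and Cish, an inhibitor of cytokine signalling (0.892). Without PBS replicates 1 and 4 these values were 0.767, 0.301 and 0.819, so the likeness of Slc20a1 rests on these mice. For Spry2 they were Map3k14, a kinase of the noncanonical NF-kappaB pathway (0.857), Egr1 (0.776) and Zfp36l1, an mRNA decay factor (0.769), and they were 0.865, 0.824 and 0.718 without PBS replicates 3 and 5, farthest from the median. For Dusp1 they were Pbld2 (0.761), the homeobox gene Irx3 (0.757) and Alb, which encodes albumin (0.748). The values for Dusp1 were 0.572, 0.690 and 0.584 without PBS replicates 2 and 3. These genes were selected as the highest of many, so the correlations are given as a description without p values, and the 17 points include the group differences.

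Fluoxetine was next compared with saline under stress, a comparison that shares the PBS mice with the first. At an adjusted p under 0.05 Spry1 was the member that differed, and it was higher in FLX, against 0.726% of all genes passing. At the threshold of the study Dusp5 was the only member, down-regulated, against 1.9% of all genes. Spry1 was the only member whose groups did not overlap, against 2.92% of all genes. The median log2 fold change of the members was -0.25, with 3 above 0 and 7 below, and that of all genes tested was -0.00267.

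Spry1 had 7.03 to 8.44 FPKM in FLX mice with a median of 7.76, above PBS replicates 1 to 5 and inside the Ctrl range. FLX exceeded PBS by 1.76-fold, a log2 fold change of 0.82 (SE 0.13, 95% interval 0.55 to 1.09, edgeR adjusted p = 0.00540), and without any 1 mouse it was 0.76 to 0.88 (adjusted p = 0.00286 to 0.0222). With PBS replicate 6 it was 0.51 and did not pass (adjusted p = 0.307). With FLX replicates 1 and 2 as the only FLX mice it was 0.91 and did not pass (adjusted p = 0.223). In that setting 0 of all genes passed, so this miss is not particular to Spry1. Over all 6 PBS mice no member passed edgeR's adjusted p, against 0.557% of all genes, while 3 had an unadjusted p under 0.05, and no member was without overlap, against 2.04% of all genes.

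Dusp5 had 0.579 to 0.895 FPKM in FLX mice with a median of 0.727. None of the 6 reached the level of PBS replicates 1, 3 or 4, and all lay inside the Ctrl range. The log2 fold change was -1.52 (95% interval -2.44 to -0.60, adjusted p = 0.131), and without PBS replicate 4 it was -0.86 (adjusted p = 0.468), while DESeq2 called it (adjusted p = 0.0173). Dusp6 had 11.2 to 15.4 FPKM in FLX mice, with none near the values of PBS replicates 1 and 4, and its log2 fold change was -0.52 (95% interval -1.04 to -0.0064, adjusted p = 0.439). Dusp4 had 2.42 to 3.62 FPKM and a log2 fold change of -0.60 (95% interval -1.02 to -0.18, adjusted p = 0.204).

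For Dusp8 and Dusp10 the FLX mice overlapped with the PBS mice. Dusp8 had 0.506 to 0.921 FPKM in FLX mice with a median of 0.564, and its log2 fold change against PBS was -0.42 (95% interval -1.01 to 0.17, adjusted p = 0.646). Dusp10 had 0.173 to 1.86 FPKM with a median of 0.525, and its log2 fold change was -0.61 (95% interval -1.73 to 0.51, adjusted p = 0.765). Without PBS replicate 5 the latter was -0.25, and without FLX replicate 5 it was -1.19. Dusp1, Spry2, Spry4 and Spred1 had log2 fold changes of 0.053, -0.068, 0.083 and -0.038 (adjusted p = 0.933 to 0.977). The 95% interval of Dusp1 was wide, -0.49 to 0.60, and that of Spred1 narrow, -0.25 to 0.18. With all 6 PBS mice the log2 fold changes of Dusp5, Dusp6, Dusp4, Dusp8 and Dusp10 in this comparison were -1.45, -0.34, -0.50, -0.36 and -0.51, and those of Dusp1, Spry2, Spry4 and Spred1 were 0.15, -0.17, 0.054 and -0.098 (adjusted p = 0.123 or more for these 9).

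The last comparison was that of FLX with Ctrl, whose mice differ by defeat and by injection of fluoxetine. No member passed edgeR's adjusted p, against 3.67% of all genes, while 2 members, Dusp8 and Dusp10, had an unadjusted p under 0.05, and DESeq2 called 2 members and limma on log2(FPKM + 0.1) called 1. At the threshold of the study Dusp10 was up-regulated, against 2.24% of all genes, and no member was without overlap, against 3.4%. With all 6 PBS mice in the shared fit no member passed edgeR's adjusted p, against 1.77% of all genes, and 2 had an unadjusted p under 0.05. The median log2 fold change of the members was 0.056.

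Dusp8 was 1.87-fold higher in FLX than in Ctrl mice, a log2 fold change of 0.90 (95% interval 0.33 to 1.48, edgeR adjusted p = 0.0719). Of the 6 FLX mice, 4 lay above every Ctrl mouse, and the other 2, at 0.506 and 0.529 FPKM, lay just below Ctrl replicate 4 at 0.534. It passed with DESeq2 (adjusted p = 0.0185), with limma (0.0313) and without Ctrl replicate 3 or 4 (0.0473 and 0.0396). Dusp10 had a log2 fold change of 1.60 (95% interval 0.49 to 2.71, adjusted p = 0.0995) and passed with DESeq2 (adjusted p = 0.0199). Without FLX replicate 5 it was 1.02 (adjusted p = 0.280). Spry1, Dusp5 and Dusp6 were close to their Ctrl levels, with log2 fold changes of 0.052 (95% interval -0.20 to 0.30), 0.060 (-0.82 to 0.94) and 0.038 (-0.46 to 0.53).

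The spread between mice, as the coefficient of variation of FPKM, was lowest in FLX mice for 7 of the 10 members and highest in the 5 PBS mice for 6, in Ctrl mice for 3 and in FLX mice for 1. With PBS replicate 6 it was highest in the PBS mice for 8. Spry4 varied by 4.59% over FLX mice (2.11 to 2.41 FPKM), 26.7% over Ctrl and 32.0% over PBS mice. For Dusp6 it was 13.2%, 9.23% and 53.3% in FLX, Ctrl and PBS mice, and for Dusp5 15.4%, 39.5% and 88.6%. Dusp10 went the other way, with 88.4%, 42.4% and 68.3%, and Dusp8 varied most in Ctrl mice (45.2%). Spry1 had 6.30%, 19.5% and 18.2%, and 51.5% over all 6 PBS mice. The differences in spread were not tested.

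The related genes of the pathway were read from lists, in each of which 1 or more members passed in at least 1 comparison. Of 6 other Dusp, Sprouty and Spred genes tested, 1 was higher in PBS than in Ctrl and 1 lower in FLX than in PBS, in both cases the ERK phosphatase gene Dusp7. Its log2 fold changes were 0.44 (adjusted p = 0.0211) and -0.57 (adjusted p = 0.0157), with levels of 2.53 ± 0.363 FPKM (SD, n = 6) for Ctrl, 3.42 ± 0.179 (SD, n = 5) for PBS and 2.47 ± 0.270 (SD, n = 6) for FLX mice. With PBS replicate 6, at 2.29 FPKM, neither passed (adjusted p = 0.109 and 0.0844). Dusp9 was lower in FLX than in Ctrl (log2 fold change -0.89, adjusted p = 0.00171).

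Among the ligands, 15 of 17 growth factor genes were tested. Hbegf was higher in PBS than in Ctrl (log2 fold change 2.67, adjusted p = 0.00706) and lower in FLX than in PBS (-2.23, adjusted p = 0.0480), with PBS replicates 1 and 4 far above the other PBS mice. Over all 6 PBS mice it passed in the first comparison (2.45, adjusted p = 0.0198) and not in the second (-2.01, adjusted p = 0.109). Pdgfb, a platelet-derived growth factor made by endothelium, moved the other way and evenly over mice, with 4.16 to 5.02 FPKM in Ctrl, 2.76 to 3.48 in PBS replicates 1 to 5 and 3.91 to 5.33 in FLX mice. PBS against Ctrl gave -0.50 on the log2 scale (adjusted p = 0.00404) and FLX against PBS gave 0.47 (adjusted p = 0.0191), and with all 6 PBS mice it still passed in both (adjusted p = 0.00748 and 0.0312). Of 15 receptor tyrosine kinase genes, Erbb3, a partner of the EGF receptor family, was lower in PBS (-0.87, adjusted p = 0.00401) and in FLX (-1.01, adjusted p = 0.00159) than in Ctrl.

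For the kinases themselves the counts can be set beside 3.81%, 0.726% and 3.67% of all genes passing in the 3 comparisons, and nothing particular to them is read from these counts. Of 19 genes of the ERK cascade, 1 was higher in PBS than in Ctrl, Map2k1, which encodes the ERK kinase MEK1 (log2 fold change 0.37, adjusted p = 0.00629), none passed in FLX versus PBS, and Ptpn11 was higher in FLX than in Ctrl (0.34, adjusted p = 0.0470). Of 14 genes of the JNK and p38 cascades, 1, Map3k5, was higher in FLX than in Ctrl (0.32, adjusted p = 0.0414) and none passed in the other comparisons. Of 9 kinases activated by MAP kinases, Mknk2 was higher in PBS than in Ctrl (0.57, adjusted p = 0.0290). When PBS replicate 6 was included, Map2k1 still passed (0.39, adjusted p = 0.00400), Ptpn11, Map3k5 and Mknk2 did not (adjusted p = 0.0843, 0.0540 and 0.0667), and Map2k3, which encodes a p38 kinase, passed in PBS versus Ctrl (0.40, adjusted p = 0.0459).

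Of the 21 ERK-responsive genes tested, 4 were higher and 1 was lower in PBS than in Ctrl, against 3.81% of all genes passing. Their median log2 fold change was 0.32. Mcl1, an inhibitor of apoptosis (0.63, adjusted p = 0.0182), Fosl2 (0.96, adjusted p = 0.0226), Srf, which encodes serum response factor (0.43, adjusted p = 0.0331), and Epha2 (1.05, adjusted p = 0.0439) were higher, and the ETS factor gene Etv5 was lower (-0.61, adjusted p = 0.0230). Over all 6 PBS mice the 4 higher genes still passed, and Etv5, at 6.00 FPKM in PBS replicate 6, did not (-0.41, adjusted p = 0.220). In FLX versus PBS none passed the adjusted p, against 0.726% of all genes, and the median was -0.46. In FLX versus Ctrl Srf was higher (0.47, adjusted p = 0.0209) and Etv5 lower (-0.89, adjusted p = 0.00263), against 3.67% of all genes passing. At the threshold of the study 2 of the 21 were up-regulated in PBS versus Ctrl, against 3.28% of all genes. At that threshold 5 were down-regulated in FLX versus PBS and 2 in FLX versus Ctrl, against 1.9% and 2.24% of all genes.

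The 8 glucocorticoid-induced genes were read because Dusp1 is induced by the same hormones. This list was chosen with earlier results of these data known. All 8 passed as higher in PBS than in Ctrl, against 3.81% of all genes passing, with a median log2 fold change of 1.40. With all 6 PBS mice the 8 still passed, with a median of 1.62. Per1, a clock gene (2.06, adjusted p = 0.000134), Zbtb16 (3.04, adjusted p = 0.000332) and Cebpd (1.57, adjusted p = 0.000487) had the smallest adjusted p values. In FLX versus PBS, Per1 (-1.28, adjusted p = 0.0171) and Cebpd (-1.14, adjusted p = 0.0190) were lower, against 0.726% of all genes passing. In FLX versus Ctrl 3 of the 8 were higher, against 3.67% of all genes. Dusp1 differed from this list in that 3 of the 5 PBS mice lay below every Ctrl mouse. The part of glucocorticoids in any of these differences was not tested.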

How the data were processed

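RNA of the right kidneys was poly(A)-selected and sequenced in pairs from libraries that mark the strand. After fastp, the authors mapped reads to GRCm38 using HISAT-3N, and they deposited FPKM values computed with StringTie. Their processing notes name HISAT2 2.0.4, cutadapt 1.9 and StringTie 1.3.4d. The authors also deposited estimated counts per gene as whole numbers, and the sources used here do not name the counting tool. Counts were compared with edgeR 4.0.16 (R 4.3.3) over 17 mice in 1 model of 3 groups after TMM scaling and filterByExpr. PBS replicate 6 was left out, taken as the study's deleted mouse. The edgeR tests of members and listed genes were repeated with it. The correlations and the fits that leave out a mouse were not. FPKM values served for levels. The p values are two-sided and test differences between groups against the spread between mice. Alternatives were DESeq2 1.42.0, upper-quartile scaling, no filter, limma 3.58.1 on log2(FPKM + pseudocount), a replicate block, fits of only the groups compared, FLX replicates 1 and 2 only, and leaving out each mouse. The fit was tested on simulated data with the same dispersion for all genes and no outlying mice. That test does not cover genes as uneven over the PBS mice as Dusp5 and Dusp10. Named are all members, up to 5 genes per list that passed, and the 3 genes most like Dusp1, Dusp6 and Spry2, as well as the genes in which PBS replicates 1 and 4 were highest, which were chosen after their values were seen. Members and lists were chosen with earlier results of these data known.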

Additional observations from a re-analysis of the deposited data

Results flagged for a closer look

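Of 30 sets of 6 mice (10 members in 3 groups), 2 held a mouse far from the other 5 on the log2(FPKM + 0.1) scale, and chance gives about 1 in 20. Spry1 stood at 10.5 FPKM in PBS replicate 6, and the next highest PBS mouse was at 5.05 FPKM. Spred1 stood at 5.19 FPKM in Ctrl replicate 3, and the next highest Ctrl mouse was at 3.89 FPKM.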

How the results depend on the processing

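Over 27 alternative settings, 752 of the members' 810 values kept their direction and their side of the threshold, 14 newly passed it, 15 no longer passed it and 29 changed sign. Against 3, 1 and 0 members called in PBS versus Ctrl, FLX versus PBS and FLX versus Ctrl, DESeq2 called 2 in each of the last 2 comparisons, limma called 1 in FLX versus Ctrl at each pseudocount, PBS replicate 6 left 0 in FLX versus PBS, and so did FLX replicates 1 and 2 only. Leaving out a mouse gave 1 to 4 in PBS versus Ctrl (1 without PBS replicate 1) and 0 to 1 in FLX versus Ctrl (1 without Ctrl replicate 3 or 4). The 772, 147 and 744 genes called became 1413, 498 and 1615 with DESeq2 and 419, 67 and 258 with the replicate block. They became 496 and 95 with only the groups compared in the first 2 comparisons, and 88 and 378 without a filter in the last 2, where limma gave 278 and 1226 (pseudocount 0.1), 266 and 1196 (0.01) and 256 and 1239 (1), and FLX replicates 1 and 2 only gave 0 and 4. With PBS replicate 6 FLX versus Ctrl had 354. Leaving out a mouse gave 388 to 1662, 47 to 250 and 271 to 3099. Of those called, 433 were higher in PBS than in Ctrl, against 314 of 763 with upper-quartile scaling. In FLX versus PBS 62 were higher, against 211 with limma, and in FLX versus Ctrl 422, against 997 with limma and 340 of 752 with upper-quartile scaling. Changes of sign concerned small log2 fold changes. Spry2 went to 0.045 in PBS versus Ctrl with PBS replicate 6 and in FLX versus PBS to 0.085, 0.088 and 0.064 with limma at the pseudocounts 0.1, 0.01 and 1. Spred1 in FLX versus PBS went to 0.063, 0.064 and 0.051 with the same fits and to 0.027 with FLX replicates 1 and 2 only, and Dusp4 in FLX versus Ctrl to 0.034, 0.035 and 0.023. Leaving out a mouse gave -0.23 to 0.048 for Spry2 in PBS versus Ctrl. In FLX versus PBS it gave -0.12 to 0.28 for Dusp1, -0.17 to 0.11 for Spry2, -0.053 to 0.27 for Spry4 and -0.086 to 0.060 for Spred1. In FLX versus Ctrl it gave -0.14 to 0.035 for Dusp4, -0.049 to 0.28 for Dusp5, -0.018 to 0.099 for Dusp6 and -0.018 to 0.11 for Spry1. Why these values moved was not tested. No clear pairing of mice by replicate number was seen. Deviations of same-numbered mice correlated between -0.20 and 0.23 over 16 pairs, against -0.21 to 0.16 over 80 other pairs. The highest value was that of FLX replicate 5 with PBS replicate 5. Of 17 mice, 0 correlated best with their own number in every other group, a strict rule that cannot exclude a weak or partial pairing. The block called 2, 1 and 0 members (Dusp10 in PBS versus Ctrl, 1.83, adjusted p = 0.0935). Among the members, Dusp5, Dusp8 and Dusp10 had the fewest counts in FLX replicates 3 to 6 (84 to 131, 145 to 264 and 32 to 332 per mouse).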
